A study of Rattus norvegicus with 9 samples.

Results

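The genes described here are *Spp1*, *Mgp*, *Alpl*, *Ibsp*, *Enpp1*, *Runx2* and *Sparcl1*, which were taken by their symbols from the 32883 genes of the deposited tables, 1 row each. They were measured by RNA sequencing in cultured fibroblasts (Fb) of wild-type Lewis rats, in 3 libraries each of epineurium-derived (Fb-Epn), nerve parenchyma-derived (Fb-Par) and skin-derived Fb (Fb-Skn). Sciatic nerve from 2 male rats gave both nerve types, and abdominal skin from 1 further male rat gave Fb-Skn, all rats being 10 weeks old, and all cells were passaged 1 time in serum-containing medium without further treatment. No source used here says that the 3 libraries of a type were separate cultures, and there were fewer rats than libraries, so an SD below is the spread between libraries, which may be technical. Nerve and skin came from different rats, so rat, body site and tissue cannot be told apart.

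These genes are known for their part in controlling where calcium phosphate is laid down. *Spp1* (osteopontin) and *Ibsp* (bone sialoprotein) encode acidic phosphoproteins of the SIBLING family that bind mineral and integrins, and *Mgp* encodes matrix Gla protein, a vitamin K-dependent inhibitor of calcification in soft tissue. *Enpp1* encodes an ectoenzyme that makes pyrophosphate, an inhibitor of mineral growth, and *Alpl* encodes the tissue-nonspecific alkaline phosphatase that breaks pyrophosphate down. *Runx2* encodes a transcription factor required for osteoblast differentiation, and *Sparcl1* (hevin) encodes a secreted matrix protein related to SPARC. Osteopontin is also made by many soft tissue cells, macrophages and Schwann cells of injured nerve among them.

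Total counts were 10084584 to 12310506 per library, and pairs of libraries of 1 type differed by more than counting noise (chi-square per degree of freedom of 3.21 to 5.22). Of the 8 listed fibroblast markers 7 were analysed, and all 7 were expressed in every type, with a summed TPM (transcript level scaled by gene length and by library total) of 26810 to 37940 per library. Markers of other cells were also present and differed between types. The 7 Schwann cell markers analysed summed to 190 to 201 TPM (Fb-Epn), 254 to 262 (Fb-Par) and 10.5 to 13.2 (Fb-Skn). In Fb-Skn *Sox10*, *Erbb3* and *Cdh19* had 0 counts. *S100b*, the largest part, had a mean TPM of 130 for Fb-Epn and 119 for Fb-Par and did not pass the adjusted p between them. The other 6 passed it as lower in Fb-Epn than Fb-Par, *Sox10* for example with 14.5 against 30.9. The 8 macrophage markers analysed summed to 328 to 352 TPM for Fb-Epn, 99.4 to 102 for Fb-Par and 26.1 to 28.6 for Fb-Skn, and all 8 passed the adjusted p in all 3 comparisons. The 8 pericyte and smooth muscle markers summed to 3507 to 3733 TPM (Fb-Epn), 5576 to 5744 (Fb-Par) and 10760 to 11210 (Fb-Skn). Most of that sum was *Acta2*, which like *Cnn1* was highest in Fb-Skn. *Notch3* was highest in Fb-Par (mean TPM 6.35 for Fb-Epn, 72.5 for Fb-Par and 1.55 for Fb-Skn). So was *Rgs5* (4.49, 14.9 and 0), with 0 counts in Fb-Skn. Against Fb-Skn, 5 of the 8 passed the adjusted p as higher and 3 as lower in Fb-Epn, and 5 and 2 in Fb-Par. Osteoblast and chondrocyte markers were near 0 in every library, with 0.737 to 2.73 TPM summed over 6 genes. Summed over a library, endothelial markers reached 24.3 to 37.1 TPM and perineurial markers, mainly *Slc2a1*, 41.3 to 163. Keratinocyte markers reached at most 1.46 and adipocyte markers, mainly *Fabp4*, 0.313 to 58.1. Of the perineurial markers, *Cldn1* had at most 7 counts in any library. In Fb-Skn the endothelial sum was mainly *Egfl7* (mean TPM 29.3), with 0 counts of *Cdh5*. The part of these other cells in the values below was not tested, and fewer cells of a type cannot be told apart from less RNA per cell.

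Promoters are shown for the *Spp1* to *Sparcl1* locus, because *Spp1* and *Sparcl1* ranked the 3 types alike while *Ibsp* between them was almost silent, and for *Runx2* because its product is a DNA-binding member of the set. Promoter windows of 300 bases (250 before and 50 after a start site) from RefSeq on the GRCr8 build were matched by symbol for 5 of the 7 genes. Capitals mark the Runx motif, searched as TGTGGT and TGCGGT on both strands.
Spp1 (GRCr8, chr14:5619755-5620054, minus strand): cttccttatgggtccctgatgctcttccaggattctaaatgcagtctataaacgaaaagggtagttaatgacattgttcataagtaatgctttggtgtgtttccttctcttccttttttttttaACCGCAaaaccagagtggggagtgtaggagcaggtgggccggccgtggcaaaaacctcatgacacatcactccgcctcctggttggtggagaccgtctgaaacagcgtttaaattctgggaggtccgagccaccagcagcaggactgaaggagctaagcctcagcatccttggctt
Ibsp (GRCr8, chr14:5757193-5757492, minus strand): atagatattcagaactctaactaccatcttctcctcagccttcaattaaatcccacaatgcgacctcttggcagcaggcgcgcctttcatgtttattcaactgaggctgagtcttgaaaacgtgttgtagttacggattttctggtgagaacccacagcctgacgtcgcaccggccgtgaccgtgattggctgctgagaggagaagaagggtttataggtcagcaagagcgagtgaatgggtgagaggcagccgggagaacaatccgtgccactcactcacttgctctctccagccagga
Sparcl1 (GRCr8, chr14:5937234-5937533, plus strand): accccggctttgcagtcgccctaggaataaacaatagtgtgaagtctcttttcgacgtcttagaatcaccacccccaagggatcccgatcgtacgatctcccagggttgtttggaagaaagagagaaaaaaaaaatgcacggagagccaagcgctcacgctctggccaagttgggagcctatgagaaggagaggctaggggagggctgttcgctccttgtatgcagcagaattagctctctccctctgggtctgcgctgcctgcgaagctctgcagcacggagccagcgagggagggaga
Runx2, upstream start (GRCr8, chr9:23664808-23665107, plus strand): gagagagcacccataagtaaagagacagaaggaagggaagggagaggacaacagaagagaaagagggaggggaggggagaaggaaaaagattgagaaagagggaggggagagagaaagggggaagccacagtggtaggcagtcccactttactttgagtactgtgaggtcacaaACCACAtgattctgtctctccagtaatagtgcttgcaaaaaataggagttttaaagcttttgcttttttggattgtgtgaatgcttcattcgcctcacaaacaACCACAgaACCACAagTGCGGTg
The *Spp1* window held 1 match, from 126 to 121 bases before the start site. The upstream *Runx2* window held 4 matches, 1 before the start and 3 between bases 28 and 49 after it. The windows of *Ibsp*, *Sparcl1* and *Alpl* and the downstream window of *Runx2* held none of these letters. At least 1 match was found in 22.9% of all 33469 promoter windows and at least 4 in 0.0508% (17 windows), the latter cutoff being chosen after the *Runx2* matches were seen. A match describes letters only. The deposited counts are per gene and do not separate the start sites of *Runx2*.

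The 7 genes were chosen by symbol with their levels in these same libraries, and their differences between the 3 types, already known, so their levels and differences are given as a description without p-values. Log2 fold changes come from edgeR, fitted to the counts of all 9 libraries after TMM scaling. Each standard error is the absolute log2 fold change divided by the square root of the F statistic of the quasi-likelihood test. Of the 7 genes, 6 had enough counts for that fit, which took 13273 genes, and *Ibsp* did not.

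*Mgp* (ENSRNOG00000005695, chromosome 4 of rn6, 170856751 to 170860225) had the highest level of the set in every library. Its TPM was 2045, 2061 and 2033 in the Fb-Epn libraries, 9793, 9324 and 9742 in Fb-Par and 141, 133 and 144 in Fb-Skn. By TPM it ranked 4 among all genes in each Fb-Par library, 44 to 49 in Fb-Epn and 1138 to 1228 in Fb-Skn. The 3 types did not overlap, in the order Fb-Par, Fb-Epn, Fb-Skn. The mean TPM was 9620 ± 257 (SD, n = 3) in Fb-Par, 2047 ± 14.0 in Fb-Epn and 139 ± 5.93 in Fb-Skn. *Mgp* was thus 62.2-fold higher in Fb-Par than Fb-Skn (log2 fold change 5.96, standard error 0.039) and 13.3-fold higher in Fb-Epn than Fb-Skn (3.74, standard error 0.037). Between the nerve types it was 4.67-fold higher in Fb-Par, a log2 fold change of -2.22 for Fb-Epn against Fb-Par (standard error 0.031).

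*Spp1* (ENSRNOG00000043451, chromosome 14, 6673686 to 6679901) followed the same order. Its TPM was 442, 450 and 438 in the Fb-Epn libraries, 2074, 2181 and 2193 in Fb-Par and 67.8, 74.2 and 71.5 in Fb-Skn. Osteopontin transcripts ranked 42 to 44 among all genes in Fb-Par, 314 to 323 in Fb-Epn and 2158 to 2318 in Fb-Skn. All Fb-Par libraries lay above all Fb-Epn libraries, which lay above all Fb-Skn libraries. The mean TPM was 2149 ± 65.6 (SD, n = 3) in Fb-Par, 443 ± 5.95 in Fb-Epn and 71.2 ± 3.21 in Fb-Skn. *Spp1* was 27.2-fold higher in Fb-Par than Fb-Skn (log2 fold change 4.77, standard error 0.039) and 5.66-fold higher in Fb-Epn than Fb-Skn (2.50, standard error 0.038). It was 4.82-fold higher in Fb-Par than Fb-Epn (log2 fold change -2.27 for Fb-Epn against Fb-Par, standard error 0.033).

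*Sparcl1* (ENSRNOG00000015093, chromosome 14, 6994190 to 7025308) was also highest in Fb-Par, at a far lower level. Its counts were 694, 567 and 613 in Fb-Par, 36, 43 and 43 in Fb-Epn and 12, 2 and 10 in Fb-Skn. The TPM was 45.0 ± 1.29 (SD, n = 3) in Fb-Par, 2.83 ± 0.242 in Fb-Epn and 0.574 ± 0.364 in Fb-Skn, and the types did not overlap. The log2 fold change was 6.10 for Fb-Par against Fb-Skn (standard error 0.21) and -3.98 for Fb-Epn against Fb-Par (standard error 0.16). For Fb-Epn against Fb-Skn it was 2.12 (standard error 0.29), and 1.69 without Fb-Skn replicate 2, the library with 2 counts.

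**Figure D1:**
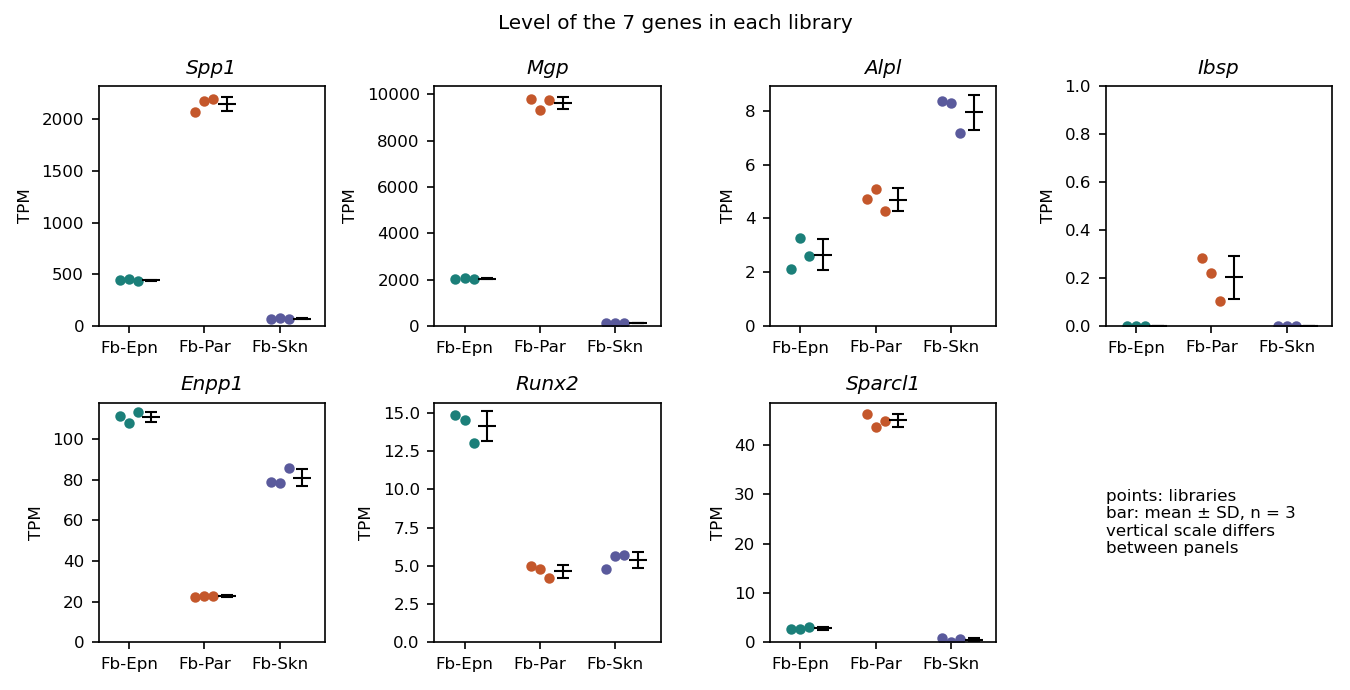
TPM of the 7 genes (vertical axes, 1 scale per panel) in each of the 9 libraries, as points by type, with the mean and SD of 3 libraries. *Spp1*, *Mgp* and *Sparcl1* were highest in Fb-Par, *Enpp1* and *Runx2* in Fb-Epn and *Alpl* in Fb-Skn, and *Ibsp* did not exceed 0.284 TPM.

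The enzymes of pyrophosphate had other orders. *Enpp1* (ENSRNOG00000013994, chromosome 1, 21748261 to 21813371) had a TPM of 111, 108 and 113 for Fb-Epn, 22.2, 23.0 and 22.9 for Fb-Par and 78.9, 78.5 and 85.8 for Fb-Skn. Fb-Par was the low type, below every library of the others. *Enpp1* was 4.92-fold higher in Fb-Epn than Fb-Par (log2 fold change 2.30, standard error 0.047) and 3.96-fold higher in Fb-Skn than Fb-Par (log2 fold change -1.99 for Fb-Par against Fb-Skn, standard error 0.047). Between Fb-Epn and Fb-Skn the log2 fold change was 0.31 (standard error 0.042), and 0.45 on the TPM scale, on which the median of all tested genes lay 0.13 higher in Fb-Epn than Fb-Skn against -0.003 with TMM.

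*Alpl* (ENSRNOG00000013954, chromosome 5, 156086497 to 156141537) was low in all types. Its counts were 26, 45 and 32 for Fb-Epn, 63, 59 and 52 for Fb-Par and 111, 96 and 84 for Fb-Skn, in TPM 2.66 ± 0.568 (SD, n = 3), 4.70 ± 0.415 and 7.94 ± 0.656. The TPM ranges did not overlap, with Fb-Skn above Fb-Par above Fb-Epn, which is the reverse of *Mgp* and *Spp1* for skin but not for the pair of nerve types. The log2 fold change was -1.71 for Fb-Epn against Fb-Skn (standard error 0.19), -0.91 for Fb-Par against Fb-Skn (standard error 0.18) and -0.80 for Fb-Epn against Fb-Par (standard error 0.20). Within a library, the TPM of *Alpl* as a percentage of that of *Enpp1* was 1.91, 3.01 and 2.28 for Fb-Epn, 21.2, 22.2 and 18.7 for Fb-Par and 10.6, 10.6 and 8.38 for Fb-Skn. The ratio was therefore highest in Fb-Par, where *Enpp1* was lowest, and lowest in Fb-Epn.

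The TPM of *Spp1* as a percentage of that of *Mgp* was 21.6, 21.8 and 21.6 in Fb-Epn and 21.2, 23.4 and 22.5 in Fb-Par. The nerve types overlapped in this ratio although the genes themselves differed between them by 4.82- and 4.67-fold. In Fb-Skn it was 48.1, 55.9 and 49.5, above every nerve library.

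**Figure D2:**
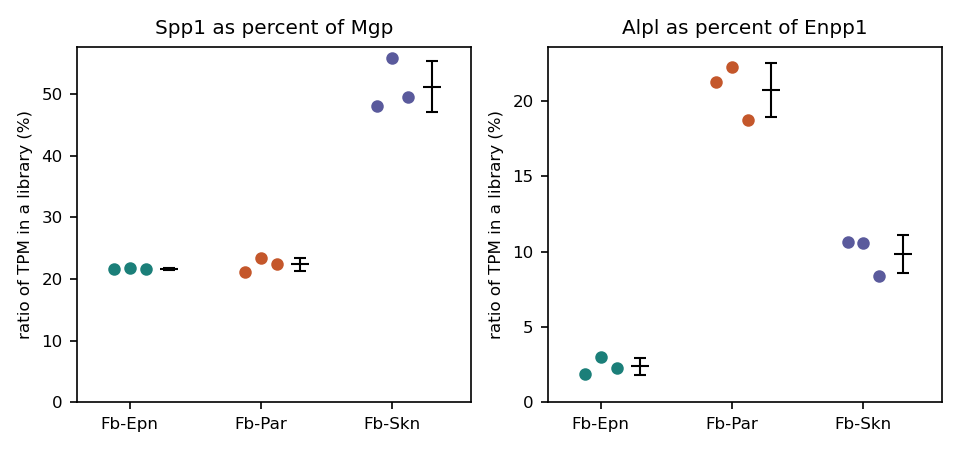
Ratio of 2 TPM values within a library, in percent (vertical axes, from 0), by type, with points for libraries and the mean and SD of 3. *Spp1* over *Mgp* was alike in Fb-Epn (21.7 ± 0.146) and Fb-Par (22.4 ± 1.11) and higher in Fb-Skn (51.2 ± 4.13), while *Alpl* over *Enpp1* separated all 3 types.

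*Runx2* (ENSRNOG00000020193, chromosome 9, 18564927 to 18773092) was expressed at a moderate to low level. Its TPM was 14.9, 14.5 and 13.0 for Fb-Epn, 5.01, 4.78 and 4.19 for Fb-Par and 4.78, 5.63 and 5.73 for Fb-Skn. Fb-Epn lay above both other types, which overlapped. The log2 fold change was 1.61 for Fb-Epn against Fb-Par (standard error 0.10), 1.26 for Fb-Epn against Fb-Skn (standard error 0.099) and -0.35 for Fb-Par against Fb-Skn (standard error 0.11). The type with the most *Runx2* was thus not the type with the most *Spp1*, *Mgp* or *Sparcl1*.

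*Ibsp* (ENSRNOG00000002158, chromosome 14, 6801204 to 6813945), a bone matrix gene, had 3, 2 and 1 counts in the Fb-Par libraries and 0 in the other 6. That is 6 counts in all, and each count of 0 allows up to 3 (counting error only), so no fold is given.

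In Fb-Epn against Fb-Skn, 3 of the 7 genes (*Spp1*, *Mgp* and *Sparcl1*) had a log2 fold change above 2 and 0 had one below -2, beside 6.55% and 2.36% of tested genes. *Sparcl1* fell under that limit without Fb-Skn replicate 2 (1.69) and with limma on log2(TPM + 1) (1.31). In Fb-Par against Fb-Skn *Spp1*, *Mgp* and *Sparcl1* lay above 2, beside 6.22%, and 0 lay below -2, beside 2.80%. *Enpp1* was close to that limit and passed it without Fb-Skn replicate 2 (-2.01). In Fb-Epn against Fb-Par, *Enpp1* lay above 2, beside 4.26%, and *Spp1*, *Mgp* and *Sparcl1* lay below -2, beside 2.61%. TPM ranges of the types did not overlap for 6 of 7 genes between Fb-Epn and Fb-Skn (61.4% of tested genes), 7 of 7 between Fb-Epn and Fb-Par (57.3%) and 6 of 7 between Fb-Par and Fb-Skn (61.7%). In the last pair of comparisons *Ibsp* is included through 1 to 3 counts in each Fb-Par library against 0 elsewhere, and it is not among the tested genes behind these shares. The genes were picked with these contrasts known and the comparisons share libraries, so nothing is read from these shares.

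**Figure D3:**
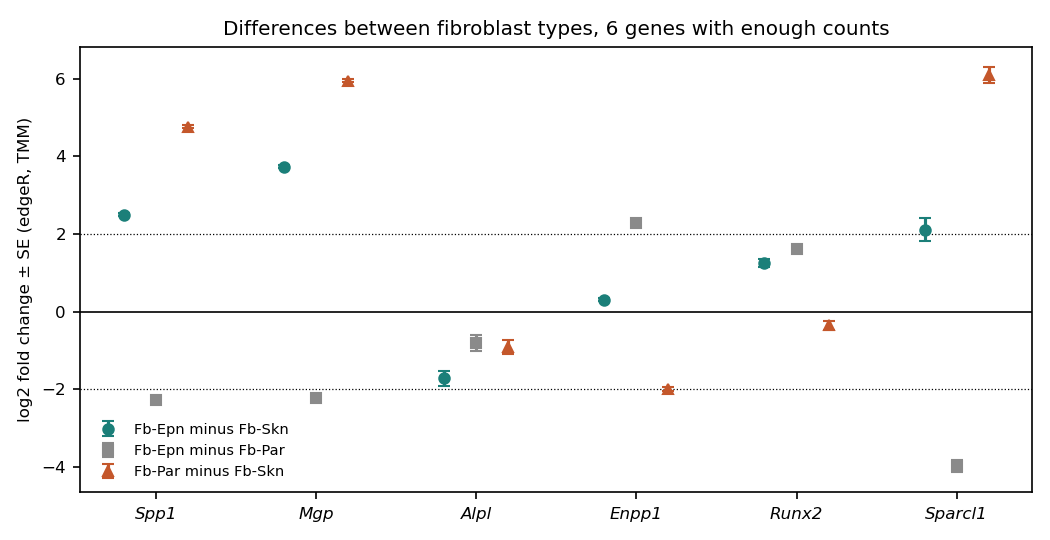
Log2 fold change with its standard error (vertical axis) for the 6 genes with enough counts, in the 3 comparisons between types (marker shape and colour), with dotted lines at 2 and -2. *Spp1*, *Mgp* and *Sparcl1* lay above 2 in both nerve types against Fb-Skn and below -2 in Fb-Epn against Fb-Par, where *Enpp1* was above 2.

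*Spp1*, *Ibsp* and *Sparcl1* share a locus with other SIBLING genes, so the shared locus is not independent of the choice of these genes. On chromosome 14 of rn6 they lie within 352 kb, with 5 genes listed between *Spp1* and *Sparcl1*, among them *Mepe*, *Dmp1* and *Dspp*, which encode other SIBLING proteins of bone and tooth. No gene between the pair was expressed beyond traces: *Mepe* reached 2 counts, *Ibsp* 3, *Dmp1* 6, and *Dspp* and *AC129695.1* had 0 in every library. Outside the pair, *Pkd2*, which encodes polycystin-2 and starts 34.6 kb from the start of *Spp1*, had a TPM of 90.2 ± 1.52 (SD, n = 3) for Fb-Epn, 176 ± 1.05 for Fb-Par and 122 ± 8.91 for Fb-Skn. *Pkd2* was higher in Fb-Par than Fb-Skn by 0.37 on the log2 scale (standard error 0.039, edgeR, adjusted p = 1.3e-06) and lower in Fb-Epn than in both others (log2 fold change -0.58 and -0.95, adjusted p = 1.5e-08 and 4.9e-11). On the far side of *Sparcl1*, *Nudt9*, which encodes an ADP-ribose hydrolase, had a log2 fold change of -0.26 for Fb-Par against Fb-Skn (edgeR, adjusted p = 0.0094), which missed the threshold in 17 of 18 other fits (-0.30 to -0.11, highest adjusted p = 0.15). *LOC679894*, which lies beyond *Pkd2*, did not pass the threshold (0.18, edgeR, adjusted p = 0.37). In the same comparison the log2 fold change was 4.77 for *Spp1* and 6.10 for *Sparcl1*. Both were chosen with these differences known, so setting them beside their neighbours is no test.

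**Figure D4:**
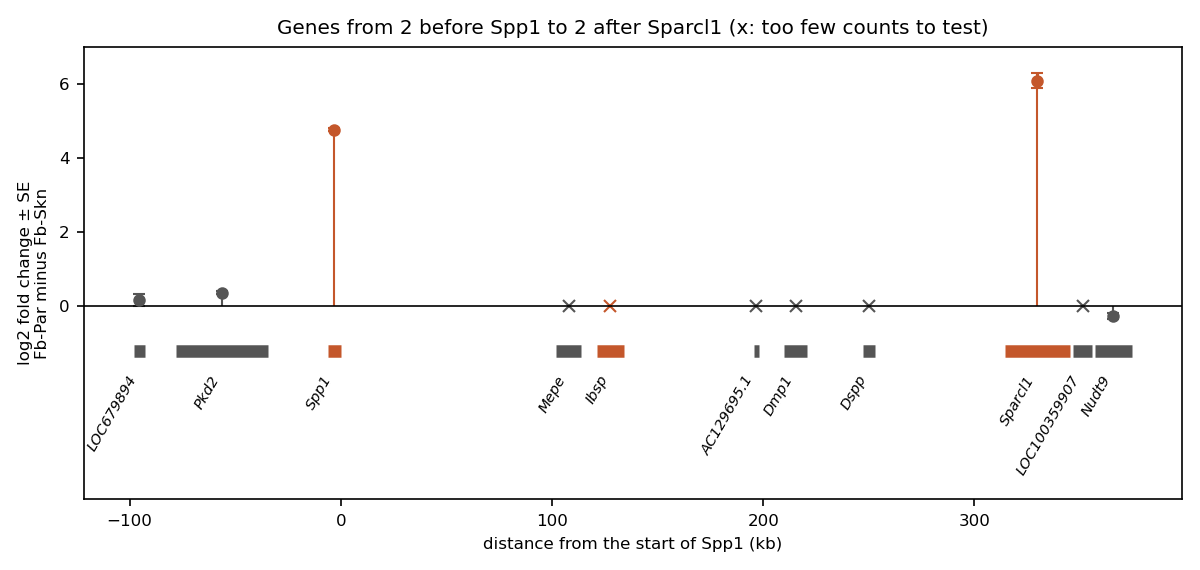
Genes from 2 before *Spp1* to 2 after *Sparcl1* by distance from the start of *Spp1* in kb (horizontal axis, bars for gene bodies), with the log2 fold change of Fb-Par against Fb-Skn and its standard error (vertical axis) and crosses for genes with too few counts. *Spp1* and *Sparcl1*, chosen with their differences known, stand at 4.77 and 6.10, the other expressed genes between -0.26 and 0.37.

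The other genes of the pathway were taken from 7 lists of 67 genes in all, none of them among the 7 above. Of these, 65 were analysed and 48 had enough counts to be tested by edgeR's quasi-likelihood test, with Benjamini-Hochberg adjustment over all 13273 genes and a threshold of 0.01. In Fb-Epn against Fb-Skn 20 were higher and 23 lower (23.0% and 20.9% of all tested genes), in Fb-Epn against Fb-Par 18 and 20 (20.2% and 18.6%), and in Fb-Par against Fb-Skn 17 and 22 (23.2% and 22.4%). Their median log2 fold changes were -0.23, -0.03 and -0.25, beside medians of all tested genes of -0.003, -0.0002 and -0.012. Among all calls, the share higher in the nerve type against Fb-Skn was 52.4% for Fb-Epn and 50.8% for Fb-Par, and 63.7% and 61.9% when only library size was scaled, or 69.0% and 66.9% with limma on log2(TPM + 1), on which the median of all tested genes was 0.13 and 0.12. None of the called list genes changed direction under the other scalings tried.

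Bone and tooth phosphoproteins were at 0 or at traces. All 8 listed (*Dmp1*, *Dspp*, *Mepe* and 5 others) had too few counts to be tested, as had *Bglap*, which encodes osteocalcin (at most 3 counts per library), and *Sp7*, the osterix gene downstream of *Runx2* (at most 10 counts).

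Genes of phosphate and pyrophosphate supply were called in both directions. Counts for this list and those below stand beside the shares of all tested genes given above. Of 9 tested, 5 were higher and 4 lower in Fb-Epn than Fb-Skn, 4 and 4 in Fb-Epn than Fb-Par, and 3 and 4 in Fb-Par than Fb-Skn, with median log2 fold changes of 0.46, -0.01 and -0.30. *Smpd3*, which encodes a neutral sphingomyelinase needed for skeletal mineralization, had 3976, 3472 and 3634 counts in Fb-Par, 54 to 80 in Fb-Epn and 11 to 16 in Fb-Skn. It was 59.4-fold higher in Fb-Par than Fb-Epn (log2 fold change -5.89 for Fb-Epn against Fb-Par, edgeR, adjusted p = 1.2e-16) and 257-fold higher than Fb-Skn (adjusted p = 4.4e-17). *Ankh*, which encodes a transporter that raises extracellular pyrophosphate, had its highest TPM for Fb-Epn, with 182 there, 113 for Fb-Par and 57.0 for Fb-Skn. The difference from Fb-Skn was 1.53 on the log2 scale in Fb-Epn (adjusted p = 6.5e-13) and 0.83 in Fb-Par (adjusted p = 7.5e-10, edgeR). *Enpp3*, a relative of *Enpp1*, was also higher for Fb-Epn, with a TPM of 143 against 63.7 for Fb-Par and 57.9 for Fb-Skn (log2 fold change 1.18 and 1.16, edgeR, adjusted p = 2.3e-11 and 2.7e-11). *Nt5e* (CD73, which makes adenosine from AMP) had a TPM of 124 for Fb-Epn, 318 for Fb-Par and 478 for Fb-Skn, and *Entpd1* (CD39, which acts before it) one of 0.714, 4.26 and 17.3. Both were lowest in Fb-Epn and highest in Fb-Skn, each step past the threshold (edgeR, highest adjusted p = 0.00018), although *Entpd1* varied from 1.70 to 6.26 TPM among the Fb-Par libraries. The phosphate importers differed less. *Slc20a1* was lower in Fb-Par than Fb-Skn by a log2 fold change of -0.97 (edgeR, adjusted p = 4e-10) and *Slc20a2* by -0.62 (adjusted p = 6.7e-07). Between Fb-Epn and Fb-Skn the log2 fold change was -1.02 for *Slc20a2* (adjusted p = 3.6e-09) and -0.24 for *Slc20a1* (adjusted p = 0.00065), the latter call being lost on the TPM scale and when only library size was scaled (highest adjusted p = 0.12). *Phospho1*, which releases phosphate inside matrix vesicles, had 78 to 87 counts in Fb-Epn and 30 to 47 in both other types. It was higher in Fb-Epn than Fb-Par (log2 fold change 1.13, edgeR, adjusted p = 0.00048), and the smaller difference from Fb-Skn (0.83, adjusted p = 0.0040) was lost without any 1 of the Fb-Epn libraries and without Fb-Skn replicate 1 or 2 (highest adjusted p = 0.022).

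The listed kinases, proteases and crosslinkers were also called in both directions. Of 8 tested, 5 were higher and 3 lower in Fb-Epn than Fb-Par, 5 and 1 in Fb-Epn than Fb-Skn, and 4 and 2 in Fb-Par than Fb-Skn, with medians of 1.56, 0.84 and 0.93. *Phex*, which encodes an endopeptidase that degrades SIBLING peptides, had 79, 80 and 84 counts in Fb-Par and at most 9 in any other library. It was higher in Fb-Par than Fb-Epn and Fb-Skn (log2 fold change -4.47 for Fb-Epn against Fb-Par and 3.64 for Fb-Par against Fb-Skn, edgeR, adjusted p = 1.9e-07 and 7.2e-07). *Tgm2*, the tissue transglutaminase that crosslinks osteopontin, had a TPM of 67.9 in Fb-Par, 8.08 in Fb-Epn and 4.34 in Fb-Skn (log2 fold change 3.82 for Fb-Par against Fb-Skn, edgeR, adjusted p = 9e-14, and -3.06 for Fb-Epn against Fb-Par, adjusted p = 5.2e-13). *Fam20c*, the Golgi kinase of secreted phosphoproteins, was higher for Fb-Epn, with a TPM of 162 against 53.9 for Fb-Par and 47.8 for Fb-Skn (fitted as 3.03-fold and 3.08-fold, edgeR, adjusted p = 3.9e-13 and 2.9e-13). Its pseudokinase partner *Fam20a* was higher in Fb-Par than Fb-Skn by 2.39 on the log2 scale (adjusted p = 5.3e-07).

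Among the other listed proteases, *Plau* (urokinase) had a TPM of 53.5 for Fb-Epn, 18.7 for Fb-Par and 4.74 for Fb-Skn. It was 3.35 higher on the log2 scale in Fb-Epn than Fb-Skn (edgeR, adjusted p = 2.5e-12). *Mmp9* was lower in Fb-Par than in both others (log2 fold change 3.19 for Fb-Epn against Fb-Par and -2.82 for Fb-Par against Fb-Skn, edgeR, adjusted p = 4.3e-08 and 1.8e-07). *Mmp7* had 138 counts over the Fb-Epn libraries, 1 over Fb-Par and 4 over Fb-Skn, a ratio of 134 to Fb-Par (95% interval 23.7 to 5333) and of 29.8 to Fb-Skn (11.4 to 111), from an exact binomial interval that covers counting error only. *Mmp3* had 470 counts over Fb-Skn, 26 over Fb-Epn and 5 over Fb-Par, a ratio of 106 between Fb-Skn and Fb-Par (45.1 to 328). Against Fb-Epn it was higher in Fb-Skn by a log2 fold change of -4.36 for Fb-Epn (edgeR, adjusted p = 4.6e-08; -5.17 without Fb-Epn replicate 1), while its log2 fold change of 2.26 between the nerve types (adjusted p = 0.0085) lost the threshold in 10 of 16 other fits, those without Fb-Epn replicate 1 and without any 1 Fb-Par or Fb-Skn library among them (highest adjusted p = 0.093).

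The machinery of vitamin K-dependent carboxylation, on which matrix Gla protein depends, is encoded by *Ggcx* and *Vkorc1* among other genes. *Ggcx*, the carboxylase gene, had a TPM of 72.2 for Fb-Epn, 72.2 for Fb-Par and 94.2 for Fb-Skn, lower in Fb-Par than Fb-Skn by a log2 fold change of -0.53 (edgeR, adjusted p = 6.6e-08). *Vkorc1*, which regenerates vitamin K, had 48.1, 56.2 and 59.4 TPM, with a log2 fold change of -0.45 for Fb-Epn against Fb-Skn (edgeR, adjusted p = 0.00014). *Gas6*, another Gla protein, had 439, 592 and 497 TPM, higher in Fb-Par than Fb-Epn (log2 fold change -0.42 for Fb-Epn against Fb-Par, adjusted p = 9.7e-09), while its difference of 0.10 between Fb-Par and Fb-Skn lost the threshold without Fb-Par replicate 1 or 3, without Fb-Skn replicate 2 or 3 and with all genes of at least 1 count in the fit (highest adjusted p = 0.021). *Pros1*, which encodes the Gla protein S, had the most TPM in Fb-Par, with 355 against 158 in Fb-Epn and 125 in Fb-Skn (log2 fold change 1.36 for Fb-Par against Fb-Skn, edgeR, adjusted p = 6.9e-13). Of 5 tested genes of this list, 1 was higher and 3 lower in Fb-Epn than Fb-Skn, 0 and 2 in Fb-Epn than Fb-Par, and 2 and 1 in Fb-Par than Fb-Skn (medians -0.45, -0.22 and -0.23).

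In the SPARC family, *Sparc* was expressed at a far higher level than *Sparcl1* in every type, with a TPM of 13130 for Fb-Epn, 17040 for Fb-Par and 17600 for Fb-Skn. Its log2 fold change was -0.37 for Fb-Epn against Fb-Par and -0.56 for Fb-Epn against Fb-Skn (edgeR, adjusted p = 1.4e-10 and 8.5e-13), and that between Fb-Par and Fb-Skn (-0.20) lost the threshold on the TPM scale (limma, highest adjusted p = 0.16). *Smoc1*, which encodes a secreted SPARC-related calcium-binding protein, had 5432, 4511 and 4971 counts in Fb-Par, 357, 420 and 379 in Fb-Epn and 0, 5 and 2 in Fb-Skn. Its type order was that of *Sparcl1*, with a log2 fold change of 10.82 for Fb-Par against Fb-Skn, 7.09 for Fb-Epn against Fb-Skn and -3.73 for Fb-Epn against Fb-Par (edgeR, adjusted p = 1e-16, 6.6e-13 and 5.5e-15). Both folds against Fb-Skn rest on its 0 to 5 counts per library and ranged over the other fits from 8.82 to 11.98 and from 5.11 to 8.25. They were 10.21 and 6.47 without Fb-Skn replicate 1 and 11.98 and 8.25 without Fb-Skn replicate 2, and passed the threshold in every fit. Of 5 tested genes, 1 was higher and 4 lower in Fb-Epn than Fb-Par, 1 and 3 in Fb-Epn than Fb-Skn, and 2 and 3 in Fb-Par than Fb-Skn (medians -0.69, -0.50 and -0.20).

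Among transcription factors, *Runx1* was highest in Fb-Epn like *Runx2*, with a TPM of 196 against 63.4 in Fb-Par and 94.7 in Fb-Skn (log2 fold change 1.64 and 0.91, edgeR, adjusted p = 8.2e-11 and 4.1e-08). *Runx3* was highest in Fb-Skn, with 126, 92 and 113 counts there and 1 to 3 in every nerve library, a ratio of 54.8 to Fb-Epn (95% interval 26.3 to 138, counting error only) and of 53.3 to Fb-Par (25.6 to 134). *Dlx5*, which encodes a homeodomain factor of osteoblast differentiation, had 17 to 25 counts in each nerve library and 0 in Fb-Skn, at least 5.33-fold higher in Fb-Epn and at least 6.70-fold higher in Fb-Par against a floor of 3 counts per library (edgeR, adjusted p = 7.5e-06 and 3.2e-06). *Dlx3* had 52 counts over Fb-Epn, 25 over Fb-Par and 2 over Fb-Skn, with ratios to Fb-Skn of 22.4 (5.90 to 190) and 11.1 (2.77 to 96.7), and its call for Fb-Par was lost without Fb-Par replicate 1 or Fb-Skn replicate 3 (highest adjusted p = 0.013). *Sox9*, the chondrocyte factor, had a TPM of 93.4 for Fb-Epn, 16.6 for Fb-Par and 14.2 for Fb-Skn (log2 fold change 2.50 and 2.58, edgeR, adjusted p = 3.9e-13 and 2.7e-13). Of 12 tested genes, 6 were higher and 6 lower in Fb-Epn than Fb-Skn, 5 and 2 in Fb-Epn than Fb-Par, and 2 and 7 in Fb-Par than Fb-Skn (medians 0.19, 0.15 and -0.57).

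Of the listed receptors of osteopontin, *Itgb3*, the partner of *Itgav* in the vitronectin receptor, had a TPM of 30.7 in Fb-Par, 16.9 in Fb-Epn and 6.22 in Fb-Skn, the same order as *Spp1*, and a log2 fold change of 2.16 for Fb-Par against Fb-Skn (edgeR, adjusted p = 1.7e-09). *Itgav* itself varied less, with 264, 158 and 203 TPM in Fb-Par, Fb-Epn and Fb-Skn (log2 fold change 0.23 for Fb-Par against Fb-Skn, adjusted p = 0.0020, edgeR). *Cd44*, a receptor of hyaluronan and osteopontin, had 153, 118 and 277 TPM in the same types and was lower in Fb-Par than Fb-Skn (log2 fold change -1.01, edgeR, adjusted p = 1.1e-12). *Itga9*, an integrin subunit that binds thrombin-cleaved osteopontin, had a mean of 17.2 TPM in Fb-Epn and 1.91 in Fb-Skn. It was higher in Fb-Par and Fb-Epn than Fb-Skn, by 2.48 and 3.01 on the log2 scale (edgeR, adjusted p = 1.6e-09 and 1.6e-10). *Itga8* and *Itgb5* went the other way. *Itga8* had 153 TPM in Fb-Skn, 78.6 in Fb-Epn and 32.0 in Fb-Par, and *Itgb5* had 187, 97.05 and 74.1. Both were lower in Fb-Par and Fb-Epn than Fb-Skn (edgeR, highest adjusted p = 1.2e-11). The log2 fold changes were -2.41 and -1.10 for *Itga8* and -1.49 and -1.09 for *Itgb5*. Of 9 tested genes, 2 were higher and 6 lower in Fb-Epn than Fb-Skn, 3 and 5 in Fb-Epn than Fb-Par, and 4 and 5 in Fb-Par than Fb-Skn (medians -0.50, -0.36 and -0.26). *Itgb5* in this list overlaps a gene on the other strand with up to 1550 counts, and the use of strand in counting is not given in the sources used here.

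**Figure D5:**
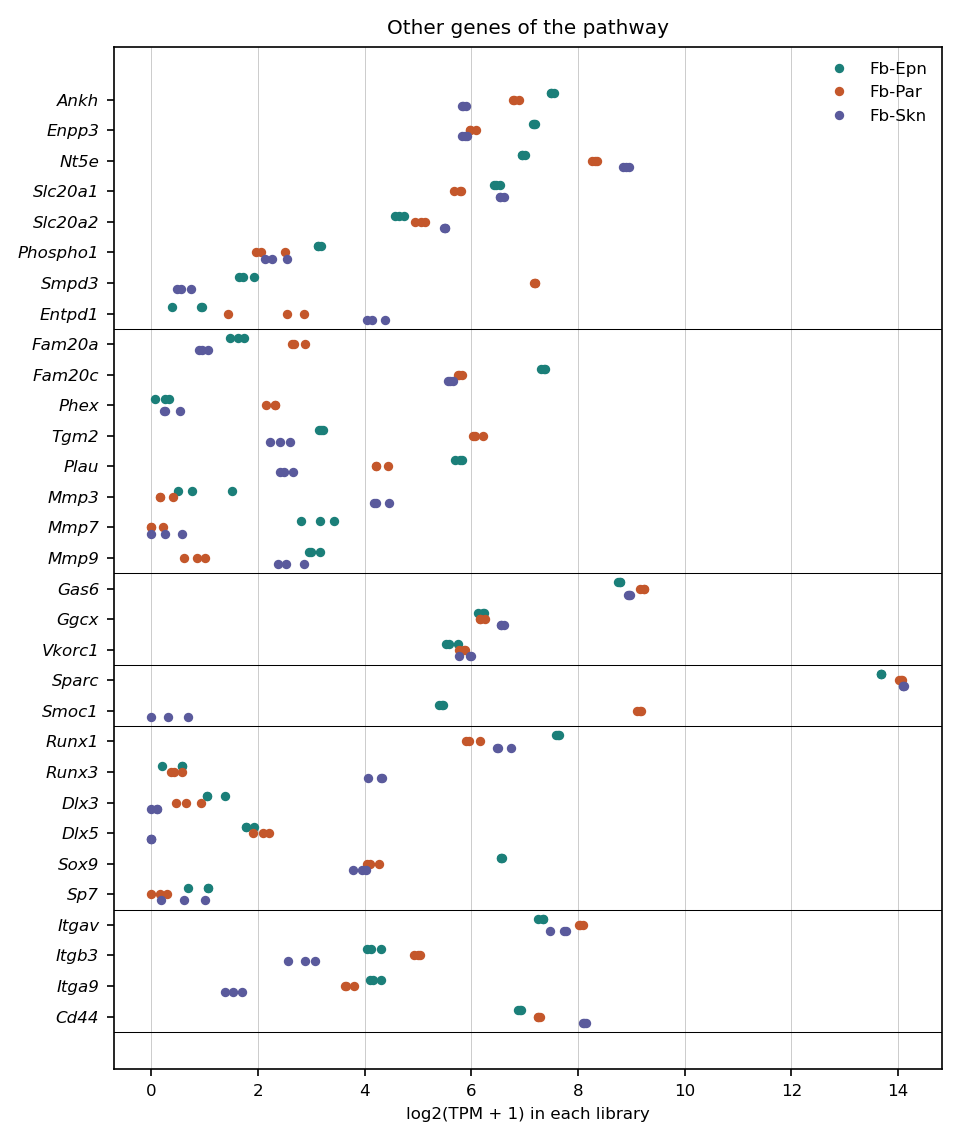
Log2(TPM + 1) in each library (horizontal axis) for named genes of the pathway, 1 row per gene, with points coloured by type and lines between the lists (phosphate supply, enzymes, carboxylation, SPARC family, transcription factors, receptors). Within their rows, *Smpd3*, *Phex*, *Tgm2* and *Smoc1* were highest in Fb-Par, *Fam20c*, *Runx1* and *Sox9* in Fb-Epn, and *Runx3* and *Mmp3* in Fb-Skn.

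The tested genes with profiles most like each gene were found by the root mean square difference of centred log2(TPM + 1) over the 9 libraries. *Spp1* was nearest to *Bean1* (difference 0.135), *Epas1* (0.152) and *Adora2a* (0.167), and *Mgp* to *C7* (0.282), *Htra3* (0.288) and *Pamr1* (0.314). *Epas1*, which encodes a hypoxia-inducible factor, had a TPM of 21.6 for Fb-Epn, 115 for Fb-Par and 2.22 for Fb-Skn. *Sparcl1* was nearest to *Gpc3* (0.149), *Cavin2* (0.242) and *Acta1* (0.259). *Enpp1* lay closest to *Igfbp3* (0.0623), an insulin-like growth factor binding protein with a mean TPM of 432 for Fb-Epn, 85.1 for Fb-Par and 315 for Fb-Skn, and then to *Pimreg* (0.107) and *Rasl11b* (0.108). *Runx2* lay closest to *Egln1* (0.0892), *Ccne2* (0.0918) and *Clec4d* (0.0977), and *Alpl* to *Gpx7* (0.109), *Apeg3* (0.121) and *Inpp4b* (0.124). The 9 libraries form 3 types, so such likeness rests mainly on 3 levels. The added 1 also shrinks changes of genes near 0 in a type, so a near profile need not mean a like fold. Mean TPM was 0.0562 for *Adora2a* and 0 for *C7* in Fb-Skn, and 0.0181 for *Clec4d* in Fb-Par.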

How the data were processed

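The authors trimmed paired-end reads of 150 bp (Trimmomatic 0.38), aligned them to rn6 (HISAT2 2.1.0) and deposited tables of raw count, TPM and FPKM values (32883 genes). The submitters' processing notes also name featureCounts 1.6.3, while the annotation release and strand setting are not given in the sources used here. The deposited counts were tested in R 4.3.3 with edgeR 4.0.16 (TMM, default filter, quasi-likelihood F test, 9 libraries in 1 model, 3 contrasts), which kept 13273 genes and was tested on simulated data. Called genes had a Benjamini-Hochberg adjusted p under 0.01, and DE genes also a log2 fold change beyond 2. The deposited TPM gave levels, and the deposited FPKM only an alternative ratio. Alternatives used DESeq2 1.42.0, limma 3.58.1 on log2 TPM with pseudocounts of 1 and 0.1, other scalings and filters, and fits without each library.

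The 7 genes and the lists were chosen with earlier results of these data known. Named list genes are 17 fixed ones and up to 8 DE genes per contrast with the largest change. *Enpp3*, *Fam20a*, *Pros1*, *Runx1*, *Smoc2*, *Itga8*, *Itga9* and *Itgb5* were named after their values were seen. Groups come from the sample titles, whose replicate numbers are not said to mark an animal or batch. P-values measure the spread between libraries only, and an exact permutation test of 3 against 3 libraries cannot give a p under 0.10. A few listed genes were not analysed here. Python 3.11.15 with pandas 2.3.3 and numpy 2.4.6 was used for the summaries.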

Additional observations from a re-analysis of the deposited data

How the results depend on the processing

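No difference of the 6 fitted genes changed direction under the alternatives tried. Of their alternative values 307 moved by less than the spread between libraries, and the other 32 came from library-size scaling, the TPM scale or the FPKM ratio. The number of DE genes was 1120 in Fb-Epn against Fb-Skn, 860 in Fb-Epn against Fb-Par and 1133 in Fb-Par against Fb-Skn. When every library had to hold at least 10 counts it was 319, 344 and 373, since genes near 0 in a type leave that fit, *Sparcl1* among them. With limma on log2(TPM + 1) it was 580, 421 and 576, where the added 1 shrinks changes of low genes. Without each library in turn it was 1121 to 1189, 854 to 903 and 1132 to 1189.

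The 48 tested list genes had 43, 38 and 39 calls in these contrasts, and 41 to 43, 36 to 39 and 37 to 40 without each library in turn. The log2 fold change of *Runx2* between Fb-Par and Fb-Skn was -0.35 and ranged from -0.42 to -0.17, and that of *Enpp1* between Fb-Epn and Fb-Skn was 0.31 and ranged from 0.29 to 0.45. Deviations of same-numbered libraries from the means of their types had correlations of -0.080 to 0.020. With 3 libraries per mean, this cannot show whether a number marks a shared rat or batch. With a replicate block the DE genes numbered 1099, 842 and 1116 and the list calls 42, 37 and 39. Depth limits *Ibsp*, *Alpl* and *Sparcl1* most.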
